A study of Mus musculus with 26 samples.

Results

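The genes described here are 10 stress and metal genes: the metallothioneins Mt1, Mt2 and Mt3, the antioxidant enzymes Hmox1, Nqo1 and Gclm, the ferritin subunits Fth1 and Ftl1, and the iron export genes Cp and Slc40a1. They were chosen by symbol and found through their Ensembl identifiers, and all 10 were among the 54532 rows of the count table. RNA was sequenced from retina and optic nerve of untreated mice, labelled day 0, to set retinal astrocytes against astrocytes of the nerve. RNA immunoprecipitated (IP) as astrocyte RNA gave 6 retina libraries, 7 libraries of the ONH (optic nerve head, the site at which ganglion cell axons exit the eye) and 7 of the ONP (the optic nerve proper behind it, which is myelinated), and the retina also gave 6 input libraries, taken before IP. The retina libraries, IP and input, carry the batch label 2, together with replicate 7 of ONH and replicate 7 of ONP, called bridging libraries here, which were made and sequenced with them. The remaining 12 nerve libraries carry the batch label 1 and come from an earlier study. The labels used here name no strain, age, transgene or promoter for the IP, and do not say whether libraries came from separate animals, so the p-values speak only of the spread among libraries, which may be technical. Y-linked genes had 702 to 2262 counts in each batch 1 library and 0 to 1 in each batch 2 library, so batch and Y-linked expression cannot be told apart.

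Metallothioneins are small cysteine-rich proteins that bind zinc and copper, and metals and stress induce Mt1 and Mt2 through the zinc-sensing factor MTF1. The factor NRF2 drives antioxidant enzymes, including those that make glutathione, recycle quinones and break down heme. Cells store iron in ferritin, shells of heavy and light subunits, and release it through ferroportin, with ceruloplasmin oxidising the iron that leaves; in the nervous system astrocytes carry ceruloplasmin on their surface.

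The metallothionein genes lie side by side on chromosome 8 (mm10), Mt3 at 94152607 to 94154146, Mt2 at 94172664 to 94173568 and Mt1 at 94179082 to 94180327, all on the plus strand. Their promoters are shown because Mt1, Mt2 and Mt3 were called lower in retina IP against both nerve regions, and that of Gclm because it is the antioxidant enzyme gene of the 10 that was called. Each sequence is the 250 bases before the RefSeq start (GRCm38.p6), 5′ to 3′ on the gene's strand. Capitals mark the metal response core, TGCACNC or TGCGCNC on either strand, in the metallothioneins, and the antioxidant response core, TGACNNNGC on either strand, in Gclm.
Mt1, chr8:94178839-94179088, plus strand: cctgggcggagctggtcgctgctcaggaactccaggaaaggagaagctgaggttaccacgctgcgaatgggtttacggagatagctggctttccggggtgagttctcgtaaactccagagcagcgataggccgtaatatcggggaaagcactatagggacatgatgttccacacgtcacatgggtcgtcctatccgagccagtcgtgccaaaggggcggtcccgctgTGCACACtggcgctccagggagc
Mt2, chr8:94172368-94172617, plus strand: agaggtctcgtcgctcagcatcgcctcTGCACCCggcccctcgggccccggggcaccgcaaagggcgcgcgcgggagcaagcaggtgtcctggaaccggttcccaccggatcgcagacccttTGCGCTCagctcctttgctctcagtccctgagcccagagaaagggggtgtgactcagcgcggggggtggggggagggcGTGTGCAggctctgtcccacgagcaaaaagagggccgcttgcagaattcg
Mt3, chr8:94152357-94152606, plus strand: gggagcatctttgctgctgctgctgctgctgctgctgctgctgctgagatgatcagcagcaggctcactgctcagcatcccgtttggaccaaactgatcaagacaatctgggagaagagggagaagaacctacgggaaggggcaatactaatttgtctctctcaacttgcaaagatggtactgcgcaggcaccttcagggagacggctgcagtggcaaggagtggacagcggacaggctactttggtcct
Gclm, chr3:122245307-122245556, plus strand: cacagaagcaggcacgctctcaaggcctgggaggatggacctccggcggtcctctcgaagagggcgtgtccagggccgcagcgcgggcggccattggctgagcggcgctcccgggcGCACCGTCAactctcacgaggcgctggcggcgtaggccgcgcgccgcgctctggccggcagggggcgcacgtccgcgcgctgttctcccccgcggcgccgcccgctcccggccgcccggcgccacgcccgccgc
Mt1 held 1 metal response core, beginning 23 bases before the start, Mt2 held 3, beginning 223, 128 and 50 bases before it, and Mt3 held 0. Over 300 bases, which add 50 after the start that are not printed, Mt1 held 3, Mt2 held 4, Mt3 held 1 and Gclm held 3. The counts thus depend on where the annotated start lies. Bases further downstream were not searched, so the counts do not rank Mt1 and Mt2 by their metal response cores. Mt2 also held 1 antioxidant core, printed in lower case, 79 bases before the start. The antioxidant core of Gclm began 134 bases before the start and overlapped the first of its 2 metal response cores, which began 138 and 72 bases before it. Promoters for Cp, Fth1, Ftl1 and Nqo1 held neither core in these 250 bases; those of Hmox1 and Slc40a1 are not analysed here. Of 32851 promoters of that length, 21.4% held at least 1 metal response core, 5.17% at least 2, 1.26% at least 3, and 10.2% held the antioxidant core. A match describes letters, not a bound site.

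Levels are in CPM, counts scaled to library size. Differences are log2 fold changes from edgeR's quasi-likelihood test with their standard error (SE), and a gene counted as called when its p, adjusted by Benjamini-Hochberg over all genes tested, was under 0.05. The fits between regions hold a batch term that rests on the bridging libraries, so a fold change need not equal the ratio of group levels. Retina IP was set against ONH IP and against ONP IP with the same retina libraries, so these 2 comparisons are not independent of each other. In each, 1 of the 10 genes was higher in retina IP and 5 were lower. Over all 16355 genes tested, 12.7% were called higher and 21.1% lower against ONH, and 12.9% and 19.9% against ONP. All 10 genes passed the filter on low counts in these fits. The median log2 fold change of the 10 genes was -1.25 against ONH and -1.62 against ONP, beside -0.13 and -0.10 over all genes tested. With no batch term all 10 were called against ONP, 2 higher and 8 lower. That fit called 4225 of 16355 genes tested higher and 4626 lower. In such bulk RNA, fewer cells of a type and less RNA per cell cannot be told apart.

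**Figure D1:**
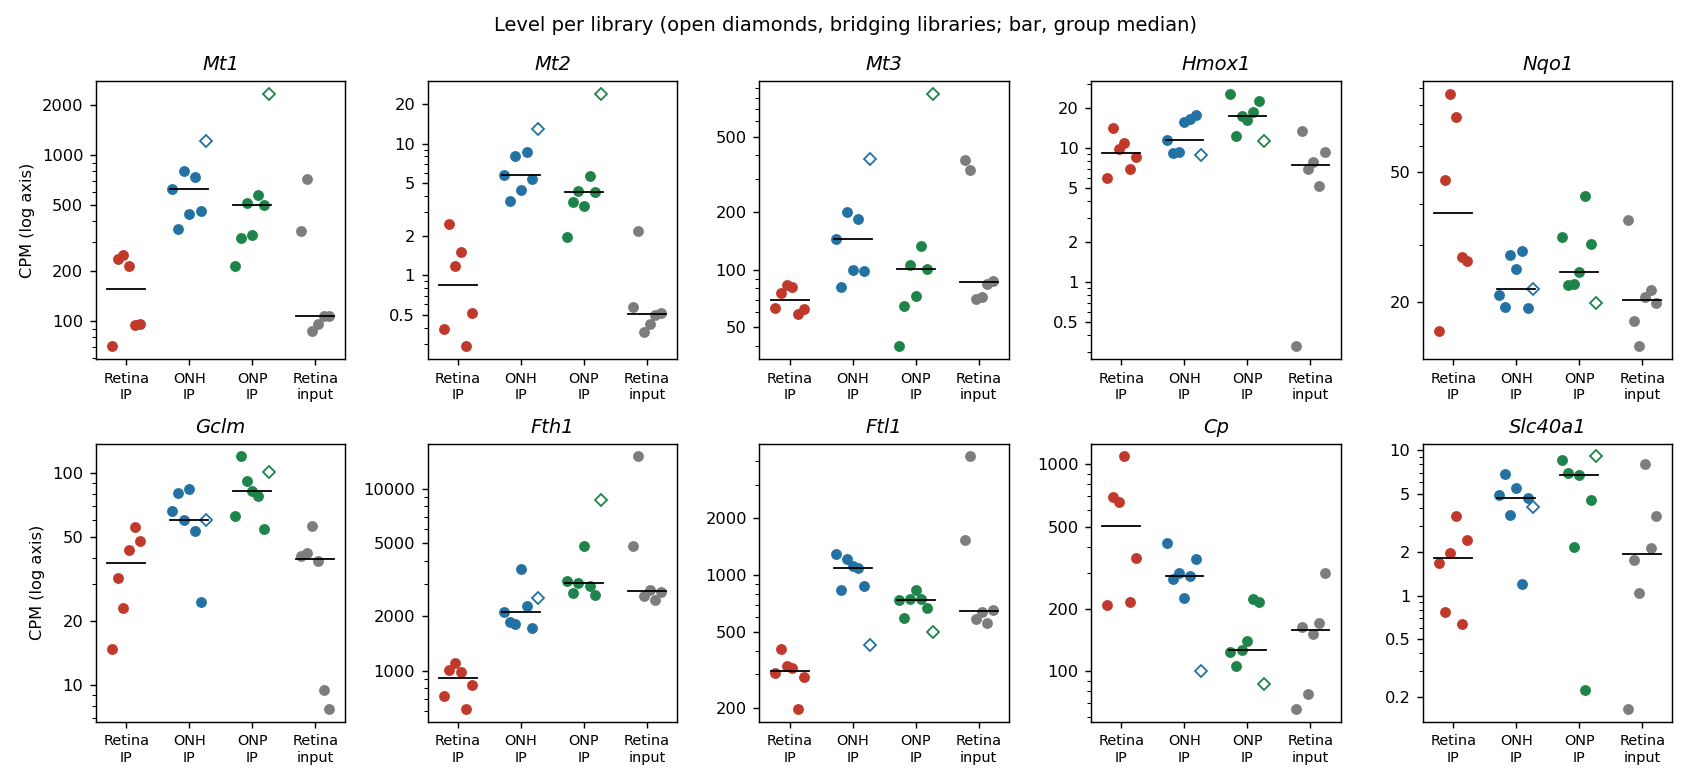
Level of each of the 10 genes in every library (CPM, log axis), by group, with open diamonds for the bridging libraries and bars for group medians. Fth1 and Ftl1 lay lower in all 6 retina IP libraries than in every ONH, ONP and input library.

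Metallothionein transcripts were lower in retina IP than in either nerve region. Mt1 had 70.5 to 251 CPM in retina IP (median 156), 361 to 1219 CPM in ONH IP (median 624), 214 to 2334 CPM in ONP IP (median 502) and 87.3 to 717 CPM in retina input (median 108). Every retina IP library lay below every ONH library, while 3 of the retina IP libraries reached above the lowest ONP library, and the highest value of both nerve groups was the bridging library. The log2 fold change of Mt1 in retina IP was -3.63 (SE 0.477, edgeR adjusted p = 1.32e-05) against ONH and -3.35 (SE 0.443, adjusted p = 1.03e-05) against ONP.

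The size of this fall rests on the bridging libraries. An alternative chosen after seeing the data left both out, with no batch term. All retina IP libraries then lay in batch 2 and all nerve IP libraries in batch 1. Batch and region cannot be told apart in that fit, for Mt1 or any other gene. The log2 fold change of Mt1 in it was -1.79 (edgeR adjusted p = 0.00017) against ONH and -1.32 (adjusted p = 0.00216) against ONP. Within batch 2 alone it was -2.73 (adjusted p = 0.0511) and -3.61 (adjusted p = 0.0125), with a single nerve library on each side, assumed to vary like the retina libraries.

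Mt2, the close partner of Mt1, was scarce throughout and split the groups in the same way. The count table cannot show whether the quantification lost Mt2 reads, so its levels may not give its true abundance. It had 0.288 to 2.44 CPM in retina IP (median 0.846), 3.65 to 12.9 CPM in ONH IP (median 5.80), 1.95 to 24.0 CPM in ONP IP (median 4.32) and 0.369 to 2.18 CPM in retina input (median 0.509). These rest on 148 counts over the retina IP libraries, 990 over ONH IP, 763 over ONP IP and 56 over input. Retina IP and ONH IP did not overlap, and 1 retina IP library lay above the lowest ONP library. The log2 fold change in retina IP was -4.36 (SE 0.614, edgeR adjusted p = 2.84e-05) against ONH and -3.95 (SE 0.570, adjusted p = 2.86e-05) against ONP, and -2.46 and -1.83 without the bridging libraries and batch term.

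Mt3, the metallothionein best known from brain, had the narrowest spread of the family in retina IP. It had 59.1 to 83.1 CPM in retina IP (median 69.4), 81.4 to 379 CPM in ONH IP (median 146), 39.8 to 838 CPM in ONP IP (median 101) and 70.6 to 377 CPM in retina input (median 86.2). The bridging libraries stood at 379 CPM in ONH and 838 CPM in ONP, and the batch 1 libraries at 81.4 to 200 and 39.8 to 134 CPM. In the fit, retina IP stood at a log2 fold change of -3.37 (SE 0.424, edgeR adjusted p = 8.12e-06) against ONH and -2.96 (SE 0.385, adjusted p = 8.45e-06) against ONP. Without the bridging libraries and batch term the call against ONP was lost (-0.25, adjusted p = 0.426) and that against ONH stood at -0.90 (adjusted p = 0.00714). With the bridging libraries but no batch term it was -1.24 (adjusted p = 0.0725) against ONH.

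Within a library, the proportions among metallothioneins also varied by group, with the same limit on Mt2. Mt2 counts, not scaled for length, came to 0.306% to 1.03% of Mt1 counts in retina IP, 0.931% to 1.19% in ONH IP, 0.854% to 1.14% in ONP IP and 0.167% to 0.481% in retina input. Mt3 counts came to 0.320 to 0.899 of those of Mt1 in retina IP, 0.216 to 0.311 in ONH IP, 0.186 to 0.359 in ONP IP and 0.467 to 1.09 in retina input. In retina, IP and input alike, Mt2 tended to the low end and Mt3 to the high end of these ranges; the ratios were not tested. Mt4, the epithelial family member, had 1 count in all libraries together.

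Among the antioxidant enzymes, Gclm, the modifier subunit of the enzyme that limits glutathione synthesis, was lower in retina IP against ONP. It had 14.8 to 55.9 CPM in retina IP (median 37.8), 24.8 to 84.4 CPM in ONH IP (median 60.4), 54.5 to 120 CPM in ONP IP (median 82.7) and 7.73 to 56.3 CPM in retina input (median 39.6). A single retina IP library reached above the lowest ONP library. Retina IP had a log2 fold change of -0.86 (SE 0.437, edgeR adjusted p = 0.133) against ONH and -1.32 (SE 0.421, adjusted p = 0.0209) against ONP. Without ONP replicate 7 the second was -1.13 and no longer called (adjusted p = 0.262).

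Nqo1, a quinone reductase, split the retina IP libraries. It had 16.3 to 86.8 CPM there (median 37.4), 19.2 to 28.7 CPM in ONH IP (median 22.0), 19.8 to 42.1 CPM in ONP IP (median 24.7) and 14.7 to 35.8 CPM in retina input (median 20.3). Retina IP replicates 2, 3 and 4 had 47.2, 86.8 and 73.8 CPM, above every other library. Retina IP replicates 5 and 6 lay among the nerve libraries, and replicate 1 lay below all of them. In retina IP the fold change was 1.28 (SE 0.490) against ONH, at the threshold but not under it (edgeR adjusted p = 0.05005), and 1.04 (SE 0.495, adjusted p = 0.115) against ONP. Nqo1 was called higher against ONH under 8 of 27 alternatives, with edgeR or DESeq2 adjusted p from 0.00719, with no batch term (1.02), to 0.0442, and under the other 19 the adjusted p reached 0.511. Among the 8 were the omissions of retina IP replicate 1 (1.45, adjusted p = 0.0137), 5 (1.44, adjusted p = 0.0328) and 6 (1.45, adjusted p = 0.0312). Against ONP it was called under 2 of 27, with no batch term (0.77, adjusted p = 0.0347) and without replicate 1 (1.21, adjusted p = 0.0378).

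Hmox1, the stress-inducible heme oxygenase that frees iron from heme, had overlapping levels in all groups. It had 5.98 to 14.1 CPM in retina IP (median 9.19), 8.81 to 17.7 CPM in ONH IP (median 11.4), 11.3 to 25.4 CPM in ONP IP (median 17.4) and 0.331 to 13.3 CPM in retina input (median 7.41). The log2 fold change in retina IP was 0.18 (SE 0.355, edgeR adjusted p = 0.733) against ONH and -0.31 (SE 0.350, adjusted p = 0.541) against ONP. With no batch term these were -0.39 (adjusted p = 0.192), with the sign turned, and -0.88 (adjusted p = 0.0056), called lower.

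Both ferritin subunits had lower levels in every retina IP library than in any library of the other groups. Fth1, the heavy subunit that oxidises iron, had 615 to 1096 CPM in retina IP (median 911), 1722 to 3610 CPM in ONH IP (median 2102), 2609 to 8719 CPM in ONP IP (median 3037) and 2442 to 15051 CPM in retina input (median 2732). Ftl1, the light subunit that aids mineral formation, had 197 to 406 CPM in retina IP (median 314), 427 to 1288 CPM in ONH IP (median 1098), 500 to 831 CPM in ONP IP (median 744) and 559 to 4240 CPM in retina input (median 649). For each gene the highest retina IP library thus lay below the lowest of the other groups.

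With Mt1 and Mt2, they made 4 of the 10 genes whose retina IP and ONH libraries did not overlap, all lower in retina IP, where 14.1% of all genes tested were apart in that direction. Against ONP, Fth1 and Ftl1 alone were apart, beside 16.5% of all genes tested. The log2 fold change of Fth1 in retina IP was -2.14 (SE 0.337, edgeR adjusted p = 9.31e-05) against ONH and -2.84 (SE 0.308, adjusted p = 9.92e-07) against ONP. That of Ftl1 was -0.82 (SE 0.255, adjusted p = 0.0179) against ONH and -0.37 (SE 0.248, adjusted p = 0.276) against ONP.

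The batch term moved Ftl1 the other way from Fth1. With no batch term Ftl1 was at -1.63 (edgeR adjusted p = 4.63e-06) against ONH and -1.14 (adjusted p = 0.000185) against ONP, called lower in both. Without ONP replicate 7 it was -0.46 (adjusted p = 0.317) against ONH and 0.10 (adjusted p = 0.894) against ONP. Fth1 stayed called in each of these, at -1.34 and -2.16 with no batch term and -1.51 and -2.04 without ONP replicate 7. Of 27 alternatives against ONH, 1 did not call Fth1 and 3 did not call Ftl1. Processed copies of ferritin genes can share reads with them: 3 copies of Ftl1, counted apart from it, had counts equal to 2.42% of those of Ftl1, and 2 copies of Fth1 had counts equal to 0.0270% of those of Fth1.

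The balance of the subunits set ONP apart from ONH. Fth1 counts came to 2.39 to 3.30 times those of Ftl1 in retina IP, 1.48 to 3.22 times in ONH IP of batch 1, 3.86 to 5.84 times in ONP IP of batch 1 and 3.16 to 4.37 times in retina input. The bridging libraries stood at 5.88 times in ONH and 17.4 times in ONP, above their groups. ONH and ONP did not overlap within batch 1. These are ratios of counts, not scaled for length, and were not tested.

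**Figure D2:**
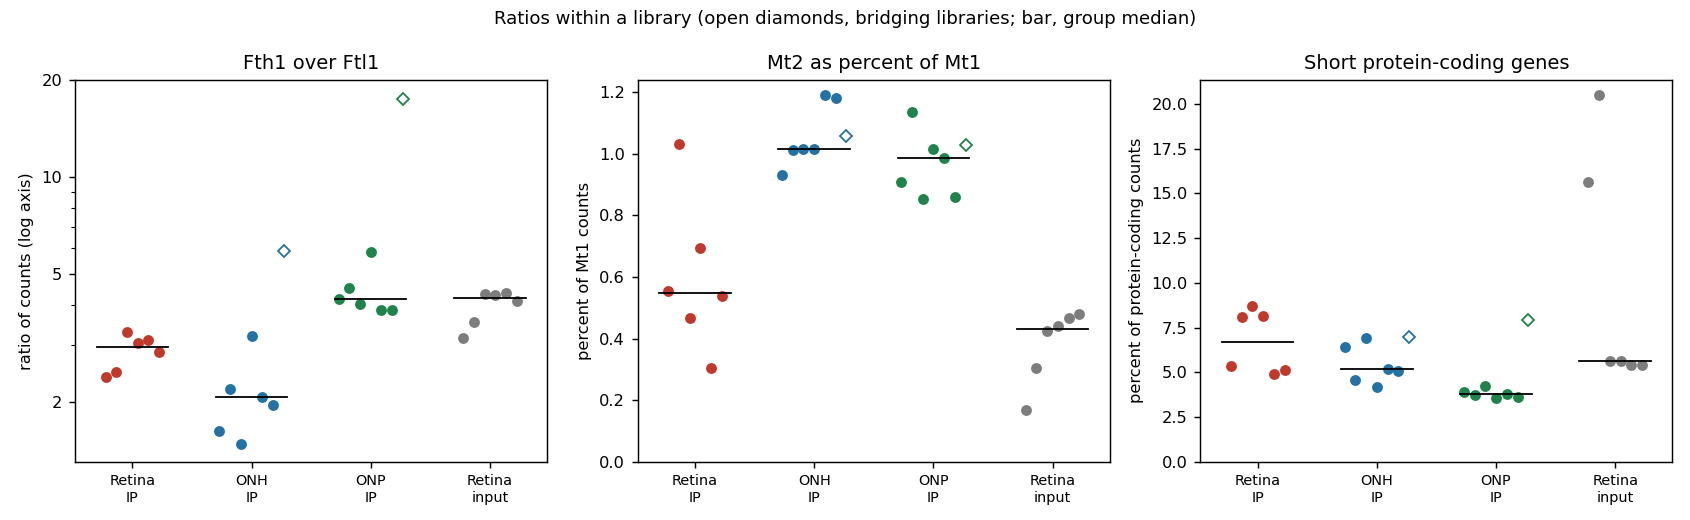
Fth1 counts over Ftl1 counts (log axis), Mt2 counts as a percentage of Mt1 counts, and the share of protein-coding counts in genes with under 1500 bases of merged exons, the 10 genes left out, in every library by group, with open diamonds for bridging libraries and bars for group medians. The Fth1 to Ftl1 ratio of ONP batch 1 (3.86 to 5.84) lies above that of ONH batch 1 (1.48 to 3.22), and input replicates 1 and 2 stand apart in short genes at 15.6% and 20.5%.

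On the export side, Cp was the gene of the 10 that was higher in retina IP in both comparisons. Ceruloplasmin, its product, is the copper-containing enzyme that oxidises exported iron. Cp had 208 to 1094 CPM in retina IP (median 504), 100 to 418 CPM in ONH IP (median 288), 86.7 to 222 CPM in ONP IP (median 127) and 65.5 to 297 CPM in retina input (median 158). Retina IP replicates 2, 3 and 4, at 697, 656 and 1094 CPM, exceeded every library of the other groups, and replicates 1, 5 and 6, at 208, 217 and 352 CPM, lay within the range of ONH. Cp in retina IP had a log2 fold change of 2.08 (SE 0.572, edgeR adjusted p = 0.00855) against ONH and 2.95 (SE 0.587, adjusted p = 0.000708) against ONP.

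Leaving out ONH replicate 7, which had the lowest Cp of its group, ended the call against ONH (1.68, edgeR adjusted p = 0.123), and against ONP it stood at 2.66 (adjusted p = 0.0163). With no batch term the fold changes were 0.97 (adjusted p = 0.0295) and 1.91 (adjusted p = 0.000204). Of 27 alternatives, 3 did not call Cp against ONH and 1 did not call it against ONP. The gene Hps3 overlaps Cp on the opposite strand and held counts equal to 4.54% of those of Cp, and the strand setting of the counting is not given in the sources used here.

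Slc40a1, which encodes the iron exporter ferroportin, was the least abundant of the 10 genes per length in every group. It had 0.634 to 3.54 CPM in retina IP (median 1.81), 1.19 to 6.88 CPM in ONH IP (median 4.72), 0.225 to 9.08 CPM in ONP IP (median 6.77) and 0.165 to 8.10 CPM in retina input (median 1.94). The groups overlapped, and the lowest values rested on 6 counts in ONP and 2 in input. The log2 fold change in retina IP was -1.64 (SE 0.837, edgeR adjusted p = 0.137) against ONH and -1.91 (SE 0.783, adjusted p = 0.0667) against ONP. It was called lower against ONP under 4 of 27 alternatives, among them those without ONP replicate 5 (-1.98, adjusted p = 0.0168) or retina IP replicate 4 (-2.17, adjusted p = 0.0415).

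**Figure D3:**
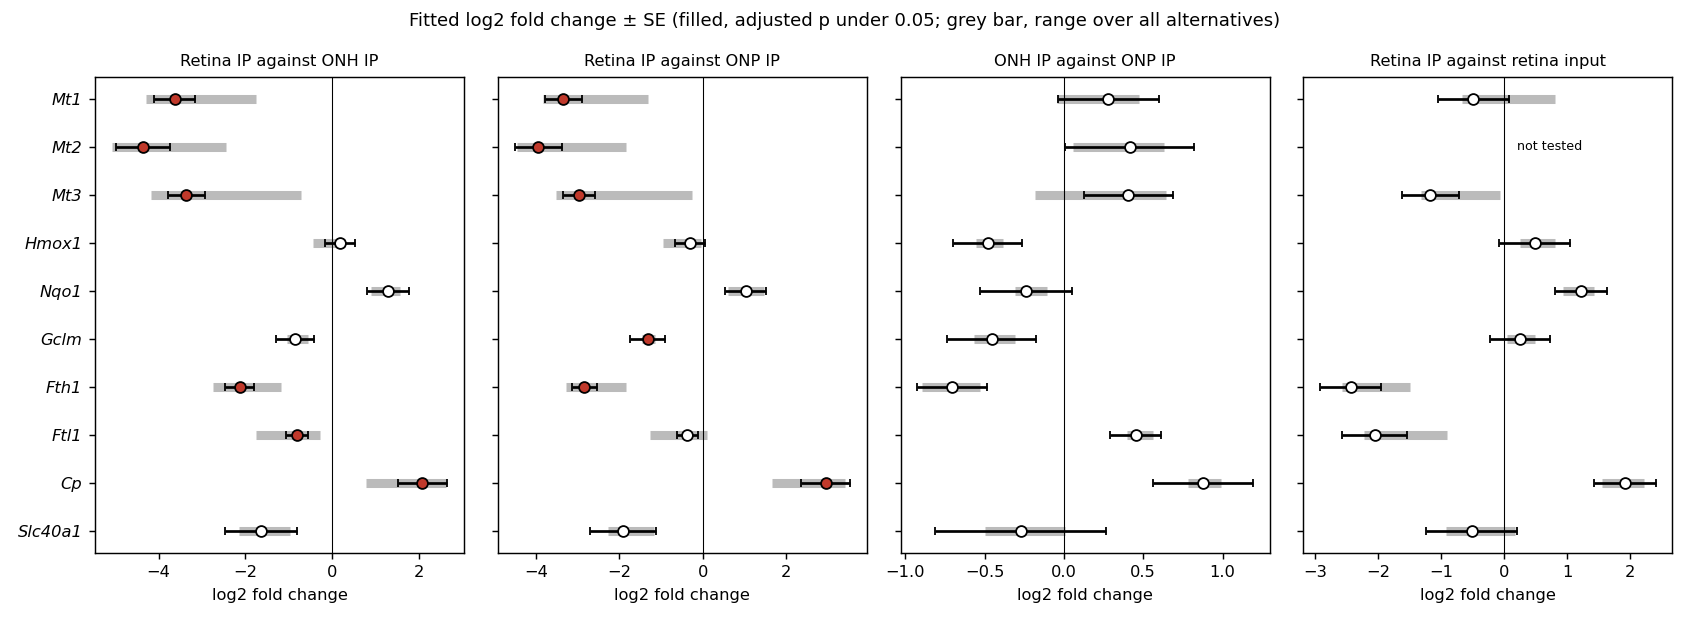
Fitted log2 fold change of the 10 genes in 4 comparisons (points, with SE as bars; filled where the adjusted p was under 0.05) over the range of all alternatives (grey). Mt1, Mt2, Mt3, Fth1 and Cp are filled against both nerve regions, and no gene is filled for ONH against ONP or for retina IP against input. The fit shown for ONH against ONP does not pair libraries by replicate number, and 4 of the 10 genes were called with that pairing.

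Per kb of merged exons, the order of the 10 genes was alike in all groups. Merged exons pool all annotated transcripts of a gene (1246 bases for Mt1 and 3469 for Fth1), so this order depends on the annotation. In retina IP, Fth1 (253 CPM per kb) and Ftl1 (231) led, followed by Mt1 (129), Mt3 (66.4), Cp (56.2), Nqo1 (29.9), Gclm (5.77), Hmox1 (5.36), Mt2 (1.79) and Slc40a1 (0.203). Fth1 also led in ONP IP (1150 CPM per kb) and retina input (1459), and Ftl1 led in ONH IP (732, beside 654 for Fth1). Fth1 and Ftl1 in retina IP, and Gclm and Hmox1 there, differed by less than the SD of the first of each pair over libraries (52.9 and 2.49 CPM per kb).

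ONH IP and ONP IP were set against one another with a batch term and no pairing by replicate number. By edgeR 0 of the 10 genes were called in that fit, with 2 higher and 2 lower at an unadjusted p under 0.05. Over all genes tested, 4.43% were called higher and 3.04% lower in ONH IP, and 12.6% and 10.7% passed at the unadjusted level. Libraries with the same replicate number deviated together in these groups. With the number as a block, which takes that pairing into account, edgeR called 4 of the 10 genes. Of 14799 genes tested it called 1481 higher and 1637 lower. Cp had a log2 fold change in ONH IP of 0.88 (SE 0.315, adjusted p = 0.0948), and of 0.91 (adjusted p = 0.00543) with the block. Fth1 had one of -0.70 (SE 0.220, adjusted p = 0.0557), and of -0.71 (adjusted p = 0.0128) with the block.

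Ftl1 was higher in ONH IP with the block (0.45, edgeR adjusted p = 0.0269), against 0.45 (SE 0.161, adjusted p = 0.0928) without it. Gclm was lower in ONH IP with the block (-0.49, adjusted p = 0.0354), against -0.46 (SE 0.280, adjusted p = 0.351) without it. The subunits of ferritin lay in opposite directions between the nerve regions. DESeq2 called 3 of the 10, Cp, Fth1 and Ftl1, and of 16355 genes tested 1150 higher and 891 lower. Batch 1 alone, which holds 6 libraries of each region, gave 2 calls by edgeR, Cp (0.99, adjusted p = 0.00821) and Ftl1 (0.56, adjusted p = 0.0162). In batch 1 alone, 1264 of 14753 genes tested were called higher and 1181 lower. Mt1 (0.28, SE 0.317, adjusted p = 0.648), Mt2 (0.42, SE 0.407, adjusted p = 0.587) and Mt3 (0.41, SE 0.280, adjusted p = 0.412) were not called under any of these.

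The retina IP libraries were also set against the retina input, to see which of the genes the IP enriched or depleted. By edgeR 0 of the 9 genes tested were called, with 2 higher and 3 lower at an unadjusted p under 0.05, where 11.7% of all genes tested were higher and 10.4% lower at that level. In this comparison 0% of all 15181 genes were called in either direction. DESeq2 called 3 of the 9 genes, and of all 15181 it called 956 higher and 1076 lower. Mt2 did not pass the filter on low counts. Fth1 had a log2 fold change of -2.43 (SE 0.485, edgeR adjusted p = 0.0570), Ftl1 one of -2.05 (SE 0.513, adjusted p = 0.0635) and Cp one of 1.92 (SE 0.492, adjusted p = 0.0663), and these were the 3 called by DESeq2. Fth1 and Ftl1 were the 2 of the 9 genes without overlap, lower in IP, beside 2.9% of all genes tested.

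Input replicates 1 and 2 weighed on this comparison. Fth1 had 4857 and 15051 CPM in these and 2442 to 2766 CPM in the other 4 inputs, and Ftl1 had 1539 and 4240 CPM beside 559 to 655 CPM. The same libraries held 8.16% and 15.2% of counts in mitochondrial genes, beside 2.79% to 4.01% in the other inputs. With both left out, an alternative chosen after seeing the data, Fth1 had -1.49 (edgeR adjusted p = 0.0296, called lower), Ftl1 -0.90 (adjusted p = 0.0898), Cp 1.76 (adjusted p = 0.111) and Mt1 0.80 (adjusted p = 0.272), against -0.48 (SE 0.565, adjusted p = 0.685) for Mt1 with them. Without input replicate 2 alone Mt1 stood at 0.17.

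The remaining genes had log2 fold changes in IP against input of 1.22 (Nqo1, SE 0.410, edgeR adjusted p = 0.102), -1.17 (Mt3, SE 0.447, adjusted p = 0.143), 0.49 (Hmox1, SE 0.559, adjusted p = 0.680), 0.26 (Gclm, SE 0.472, adjusted p = 0.818) and -0.51 (Slc40a1, SE 0.726, adjusted p = 0.753). None of these was called. In a fit of all 26 libraries, Nqo1 was called higher (1.09, adjusted p = 0.018) and Mt3 lower (-1.27, adjusted p = 0.0329), with Fth1, Ftl1 and Cp. Without retina IP replicate 1, Cp (2.09, adjusted p = 0.0426) and Fth1 (-2.37, adjusted p = 0.0404) were called, and without replicate 5 they were too (2.09, adjusted p = 0.0491 and -2.33, adjusted p = 0.0475).

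The retina IP libraries differed widely among themselves. For 8 of the 10 genes, all but Gclm and Slc40a1, replicates 2, 3 and 4 were the 3 highest of the 6, as they were for 19.2% of all genes tested between regions. The same 3 were highest for the 8 astrocyte markers summed, at 5283 to 8611 CPM beside 1068 to 2074 CPM, for the 5 pericyte markers summed, at 694 to 827 CPM beside 114 to 122 CPM, and for short genes, at 8.08% to 8.69% of protein-coding counts beside 4.93% to 5.35%. They were also highest for the 5 Müller glia markers, at 5681 to 7007 CPM beside 2215 to 3753 CPM. The ganglion cell markers ran the other way, at 774 to 1734 CPM beside 4105 to 4414 CPM. In retina input the ganglion cell markers summed to 3270 to 8426 CPM and the astrocyte markers to 384 to 1599 CPM. Retina IP replicates 1, 5 and 6 lay within the input range for ganglion cell markers, and replicates 1 and 5 within it for astrocyte markers. The part of these in the levels above was not tested.

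Markers of other cells differed between retina and nerve as well. The 7 oligodendrocyte markers summed to 49.7 to 154 CPM in retina IP, 27400 to 71860 CPM in ONH IP, 35699 to 122023 CPM in ONP IP and 20.4 to 90.2 CPM in retina input. The 9 microglia markers summed to 55.6 to 139 CPM in retina IP, 206 to 1940 CPM in ONH IP, 262 to 2943 CPM in ONP IP and 113 to 1091 CPM in retina input. The 5 macrophage markers summed to 0.0978 to 7.77 CPM in retina IP, where Vsig4 and Timd4 were at 0, and to 10.2 to 86.4 CPM in ONH IP, 10.6 to 95.8 CPM in ONP IP and 5.36 to 73.3 CPM in retina input. Ferritin, Slc40a1, Hmox1 and Trf are also made by oligodendrocytes or macrophages, and the part of these cells in their levels was not tested. The astrocyte markers summed to 1068 to 8611 CPM in retina IP, 5107 to 26914 CPM in ONH IP, 10208 to 33424 CPM in ONP IP and 384 to 1599 CPM in retina input. The 5 Müller glia markers summed to 2215 to 7007 CPM in retina IP, 708 to 1687 CPM in ONH IP, 413 to 963 CPM in ONP IP and 1203 to 5530 CPM in retina input. Between the nerve regions, the 6 pigment epithelium markers did not overlap, at 41.2 to 1059 CPM in ONH IP and 4.34 to 20.6 CPM in ONP IP, beside 15.7 to 25.0 CPM in retina IP and 17.6 to 161 CPM in retina input. Their part in the ONH and ONP differences of Cp, Fth1, Ftl1 and Gclm was not tested. ONH replicate 7, 1 of the bridging libraries, held 39544 CPM of the 6 rod markers, beside 35.8 to 654 CPM in the other ONH libraries.

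Of the listed zinc and metal genes, 18 of 19 were tested, and 2 were higher and 5 lower in retina IP against ONH, and 4 higher and 4 lower against ONP. Their median log2 fold changes were 0.03 and 0.07. Among all genes tested, 12.7% were called higher and 21.1% lower against ONH, and 12.9% and 19.9% against ONP. The manganese exporter Slc30a10 had 25.5 to 209 CPM in retina IP (median 71.8), 2.41 to 12.95 CPM in ONH IP, 3.54 to 10.1 CPM in ONP IP and 7.35 to 21.2 CPM in retina input. It was higher in retina IP, with log2 fold changes of 4.61 (SE 0.927, edgeR adjusted p = 0.00087) against ONH and 4.99 (SE 0.922, adjusted p = 0.000369) against ONP, with no overlap. Slc39a12, a zinc importer of brain, had 0.942 to 4.77 CPM in retina IP, 96.1 to 299.6 CPM in ONH IP, 134 to 467 CPM in ONP IP and 0 to 5.74 CPM in retina input. It was lower in retina IP, with log2 fold changes of -5.01 (SE 0.454, adjusted p = 1.03e-07) and -5.36 (SE 0.448, adjusted p = 3.01e-08), again with no overlap.

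Other zinc importers lay on both sides, Slc39a10 higher in retina IP (log2 fold change 1.58 against ONH and 1.12 against ONP) and Slc39a1 lower (-3.17 and -2.28). Both calls against ONP were lost without ONP replicate 7 (edgeR adjusted p = 0.157 for Slc39a10 and 0.28 for Slc39a1), and that of Slc39a10 also without ONH replicate 7 (adjusted p = 0.06). The zinc exporter Slc30a1, a target of MTF1, was lower in retina IP (-1.82, adjusted p = 0.00281 against ONH and -1.66, adjusted p = 0.0047 against ONP), and without ONP replicate 7 the second had an adjusted p of 0.144. Mtf1 itself had -0.12 (adjusted p = 0.807) and -0.83 (adjusted p = 0.0583), and the metal importer Slc39a14 -0.62 (adjusted p = 0.43) and -0.77 (adjusted p = 0.329).

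Of 28 listed antioxidant genes, all tested, 1 was higher and 10 lower in retina IP against ONH, and 2 higher and 10 lower against ONP, with medians of -0.25 and -0.33. The shares over all genes tested were 12.7% higher and 21.1% lower against ONH, and 12.9% and 19.9% against ONP. The glutathione peroxidase gene Gpx1 had 94.8 to 199 CPM in retina IP, 1296 to 3962 CPM in ONH IP, 727 to 1770 CPM in ONP IP and 148 to 710 CPM in retina input. It was lower in retina IP, at -4.02 (SE 0.403, edgeR adjusted p = 4.32e-07) and -3.07 (SE 0.375, adjusted p = 4.03e-06). It was also the listed antioxidant gene that was called for ONH against ONP, higher in ONH IP (0.94, adjusted p = 0.0386). That call was lost with no low-count filter and, among other omissions, without ONH replicate 1. Gclc, the catalytic partner of Gclm, was lower in retina IP (-1.61, adjusted p = 0.00486 and -1.88, adjusted p = 0.00109), without ONP replicate 7 at adjusted p = 0.0554 and 0.0785.

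Upstream of glutathione, the cystine carrier Slc7a11 was lower in retina IP (-2.56, edgeR adjusted p = 0.0142 against ONH and -2.72, adjusted p = 0.0177 against ONP), without ONH replicate 7 at adjusted p = 0.379 and 0.167. Bach1, which represses Hmox1, was lower (-1.32, adjusted p = 0.011 and -1.60, adjusted p = 0.00211), without ONP replicate 7 at adjusted p = 0.127 and 0.144. NRF2's own gene Nfe2l2 (-0.24 and -0.35, adjusted p = 0.621 and 0.462) and its inhibitor Keap1 (0.38 and 0.38, adjusted p = 0.0644 and 0.0649) were not called. Sulfiredoxin, Srxn1, was called higher against ONP (1.44, adjusted p = 0.00669; 0.0799 without ONH replicate 7) and had 0.91 (adjusted p = 0.0704) against ONH, while thioredoxin reductase Txnrd1 (0.61 and 0.32) and the constitutive heme oxygenase Hmox2 (0.32 and -0.16) were not called.

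Of the listed iron genes, 21 of 25 were tested, and 2 were higher and 5 lower in retina IP against ONH, and 1 higher and 6 lower against ONP, with medians of -0.25 and -0.05. The shares over all genes tested were again 12.7% higher and 21.1% lower against ONH, and 12.9% and 19.9% against ONP. The iron carrier transferrin, Trf, which oligodendrocytes make in the nervous system, had 13.4 to 98.0 CPM in retina IP, 408 to 1075 CPM in ONH IP, 411 to 1352 CPM in ONP IP and 5.23 to 13.7 CPM in retina input. It was lower in retina IP, at -3.53 (SE 0.587, edgeR adjusted p = 0.000153) and -4.14 (SE 0.578, adjusted p = 1.92e-05). Bmp6, a ligand that tunes iron uptake through hepcidin in the liver, was lower too (-5.17, adjusted p = 0.00295 and -4.53, adjusted p = 0.017), without ONH replicate 7 at adjusted p = 0.268 and 0.247.

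Hephaestin, Heph, a ferroxidase related to ceruloplasmin, was higher in retina IP against ONH (1.82, SE 0.680, edgeR adjusted p = 0.0444) and had 1.85 (SE 0.726, adjusted p = 0.0566) against ONP. Leaving out 9 of the IP libraries, each in turn, ended that call, with adjusted p from 0.0501 to 0.338. The transferrin receptor Tfrc (0.89, adjusted p = 0.0824 and 0.19, adjusted p = 0.74) and Ireb2, which encodes iron regulatory protein 2 (-0.03 and -0.29, adjusted p = 0.959 and 0.585), were not called. For ONH against ONP the calls in the 3 lists were Gpx1 and Mtf1 (lower in ONH IP, -0.70, edgeR adjusted p = 0.0472). That of Mtf1 was lost with no batch term, with no low-count filter and under most omissions of a single library. For retina IP against input edgeR called 0 of 18 zinc, 0 of 27 antioxidant and 0 of 19 iron genes tested. At an unadjusted p under 0.05, these counted 4 higher and 0 lower, 7 higher and 3 lower, and 4 higher and 2 lower. Of all genes tested, 11.7% were higher and 10.4% lower at that level.

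**Figure D4:**
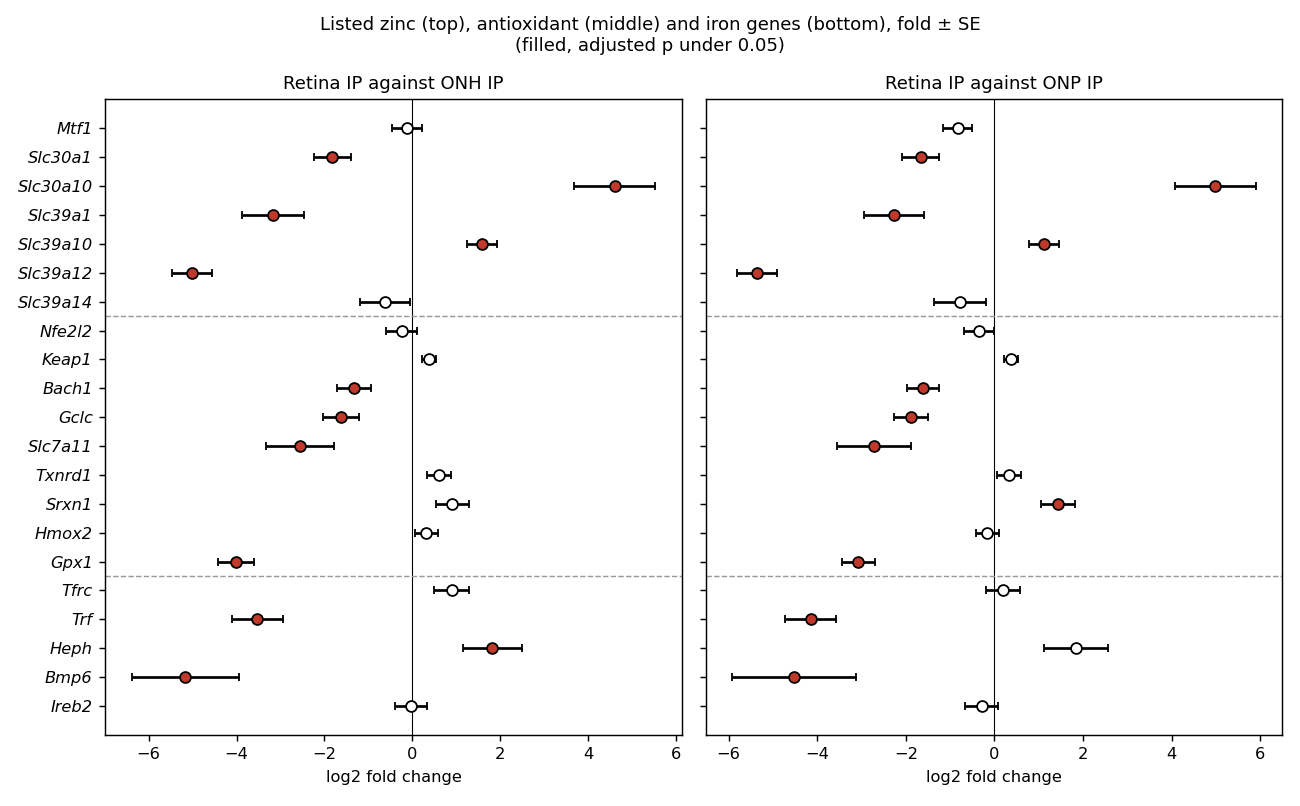
Log2 fold change of named zinc, antioxidant and iron genes in retina IP against ONH IP and ONP IP (points, with SE as bars; filled where the adjusted p was under 0.05). Slc30a10 lies highest at 4.61 and 4.99, and Slc39a12, Gpx1, Trf and Bmp6 lie lowest in both panels.

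Over all 26 libraries, the genes nearest to each of the 10 were found by the root mean square difference of centred log2(CPM + 1) among 9546 genes. Mt1 lay nearest S100a1 (0.402) and Dbi (0.434), and Mt2 nearest Mt1 (0.4658) and Ctdsp1 (0.497). Mt3 lay nearest Gpx4-ps2 (0.551) and Pura (0.555). Nqo1 lay nearest Me1 (0.353), the NADPH-making malic enzyme, and Trp53 (0.400), and Hmox1 nearest Lrch3 (0.367) and Maoa (0.381). Gclm lay nearest Mcmbp (0.380) and Tmem165 (0.440), Cp nearest Dkk3 (0.406) and Fkbp14 (0.448), and Slc40a1 nearest Lmo2 (0.630) and Slc25a32 (0.646). Fth1 lay nearest Tmsb4x (0.593) and Nme5 (0.651), and Ftl1 nearest its own copy Ftl1-ps1 (0.318), which may share reads with it, and Ddit3 (0.428). Among the 10 genes themselves, Fth1 and Ftl1 were each other's nearest (0.687), Nqo1 and Cp were (0.791), as were Mt1 and Mt2.

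Library depth ran from 14703195 to 24966236 counts in retina IP, 14812762 to 26407745 in ONH IP, 14051088 to 27431026 in ONP IP and 11164619 to 18417001 in retina input. Gfap, the filament gene that marks astrocytes, had 361 to 3762 CPM in retina IP, 2758 to 20058 CPM in ONH IP, 6427 to 26148 CPM in ONP IP and 46.6 to 731 CPM in retina input. No libraries of a group were duplicates of each other, since even the closest pairs differed by 19.1 to 48.6 times the sampling variance.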

How the data were processed

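Messenger RNA was captured by its poly(A) tail and made into libraries with a kit for very small RNA amounts, per the labels' protocols, and 26 libraries were grouped by their labels, with the batch label as a covariate. Reads were quantified with Salmon 1.6.0 and the mm10 build, per the submitters' processing notes; the transcript set and strand setting are not given in the sources used here. The deposited table holds the authors' estimated counts per gene, all whole numbers, for 54532 genes, and 0 of its columns were unused. Symbols and positions came from GENCODE M21, and promoters from RefSeq (GRCm38.p6), which matched 8 of the 10 genes.

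Tests used edgeR 4.0.16 in R 4.3.3 (TMM, filterByExpr with a minimum count of 10 and total of 15, quasi-likelihood F test), with Benjamini-Hochberg adjustment over all genes tested. The SE was derived from the fold change and its F statistic. Regions were fitted on the 20 IP libraries with a batch term, and retina IP against input on the 12 retina libraries. The 10 genes, the lists and the tests were chosen with earlier results of these data known. Genes named outside the 10 were a fixed set plus, per list and direction, up to 2 with the largest change among those called against both nerve regions at 10 CPM or more in the higher group. Likeness used a pseudocount of 1 and genes of at least 10 mean CPM.

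Same-numbered ONH and ONP libraries of batch 1 deviated together, with correlations of 0.121 to 0.545 over genes. Each ONH library correlated best with the ONP library of its own number, so the numbers were taken to pair them. The main fit of ONH against ONP did not use this pairing, which entered as the replicate block. Alternatives were RLE size factors, DESeq2 1.42.0, no low-count filter, no batch term, single batches, a fit over all 26 libraries, blocking on replicate number, omission of each library and 2 chosen after seeing the data. On simulated data, 100 genes were changed 4-fold. Of these, 57 were called for retina IP against input, 38 against ONH, 58 against ONP and 83 for ONH against ONP. Of 100 changed 2-fold, 7, 2, 5 and 33 were. The simulation gave the remaining genes 1 mean each over all libraries. It held no batch effect and no other group difference, and took its spread from the trend over genes. The real fits may thus recover other shares. Depth was 11164619 to 27431026 counts a library. Figures used matplotlib 3.10.9.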

Additional observations from a re-analysis of the deposited data

Results flagged for a closer look

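In 10 of 40 groups of libraries examined, 4 for each of the 10 genes, a library lay far from the rest of its group. The rule flags about 1 in 20 independent groups by chance where values are normally distributed, which CPM values need not be. The 40 groups reuse the same 26 libraries, so the 10 cannot be read against that rate. The bridging ONP library, replicate 7, was far above the other ONP libraries for Mt1 (2334 CPM), Mt2 (24.0 CPM), Mt3 (838 CPM) and Fth1 (8719 CPM). The bridging ONH library, replicate 7, was far above its group for Mt3 (379 CPM). ONH replicate 4 was far above for Fth1 (3610 CPM). Input replicate 2 was far above the other inputs for Mt2 (2.18 CPM), Fth1 (15051 CPM) and Ftl1 (4240.1 CPM), and input replicate 1 for Nqo1 (35.8 CPM).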

How the results depend on the processing

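Of 962 values of the 10 genes under an alternative, 888 kept direction and side of the threshold, 15 lost the call, 49 gained one and 10 changed sign; causes of these were not tested. The region comparisons rest on 2 bridging libraries for their batch term, and Mt2 and Slc40a1 on few counts. Genes called for retina IP against ONH numbered 5532 and against ONP 5371; without the bridging libraries and batch term they numbered 9420 and 9444, with no batch term 8465 and 8851, and in batch 2 alone 818 and 1690. Of the 10 genes, 6 were called in each, 1 in batch 2 alone against ONH, and 10 with no batch term against ONP. Against input 0 genes were called, 2032 by DESeq2, 2871 with all libraries in one fit, 49 without input replicates 1 and 2, and 193 with no low-count filter, with 3, 5, 1 and 1 of the 10. ONH against ONP had 1223 calls, 2041 by DESeq2 and 2445 in batch 1 alone, with 0, 3 and 2 of the 10. Leaving out single libraries gave 2984 to 6027 calls (5 to 7 of the 10) against ONH and 2155 to 5741 (5 to 7) against ONP, the lowest of both without ONP replicate 7. It gave 0 to 381 (0 to 2) against input, above 0 without retina IP replicate 1 or 5 or input replicate 2, and 601 to 1566 (0 to 1) for ONH against ONP, lowest without ONH replicate 1.

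With the replicate number as a block, ONH against ONP had 3118 calls and 4 of the 10, given above with their values, and Slc40a1 turned to 0.0082; the block changed no other call of the 10 there. Retina IP and input share only a number. Deviations of same-numbered libraries correlated at -0.160 to 0.288, and 4 of the 6 IP libraries correlated best with the input of their own number. With the replicate block 0 genes and 0 of the 10 were called by edgeR, at a smallest adjusted p of 0.172. Retina and nerve libraries share only a number too; with a block in place of the batch term 9454 and 9699 genes were called against ONH and ONP.

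Log2 fold changes with the sign turned were as follows. With no batch term they were Mt1 -0.046 and Mt3 -0.18 (ONH against ONP), Hmox1 -0.39, Hmox2 -0.078, Ireb2 0.29, Keap1 -0.21 and Txnrd1 -0.047 (against ONH), and Ireb2 0.040, Keap1 -0.21 and Txnrd1 -0.33 (against ONP). Without the bridging libraries as well they were Hmox1 -0.45, Hmox2 -0.13, Ireb2 0.39, Keap1 -0.28 and Txnrd1 -0.13 against ONH, and Ireb2 0.078, Keap1 -0.28 and Txnrd1 -0.40 against ONP. With the block in place of the batch term they were Hmox1 -0.44, Hmox2 -0.14, Ireb2 0.29, Keap1 -0.29 and Txnrd1 -0.13 against ONH, and Ireb2 0.046, Keap1 -0.29 and Txnrd1 -0.43 against ONP. In batch 2 alone they were Nfe2l2 0.16 and Mtf1 0.0035 against ONH and Ireb2 0.065 against ONP. Ireb2 against ONH also turned under DESeq2 (0.020), RLE size factors (0.022) and no filter (0.036). With single libraries left out, Ireb2 ran from -0.27 to 0.17 and Mtf1 from -0.25 to 0.035 against ONH, Ftl1 from -0.66 to 0.10 and Tfrc from -0.0069 to 0.35 against ONP, both turned without ONP replicate 7, and against input Mt1 from -0.67 to 0.17 (input replicate 2) and Slc40a1 from -0.84 to 0.18 (input replicate 4). Mt1 against input was 0.80 without input replicates 1 and 2.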

Other observations

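ONP replicate 1 stood apart for genes of the lists. It had 55.3 CPM of the cystine carrier gene Slc7a11, beside 4.67 to 7.38 CPM in the other ONP libraries, and 42.0 CPM of Bmp6, beside 0.805 to 5.29 CPM. The 5 fibroblast markers summed to 975 CPM in it and to 142 to 307 CPM in the other ONP libraries, beside 425 to 1033 CPM in ONH IP. The part of those cells in these levels was not tested.

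Short protein-coding genes, with under 1500 bases of merged exons and without the 10 genes, are a measure chosen after seeing the data. They took 4.93% to 8.69% of protein-coding counts in retina IP, 4.16% to 6.97% in ONH IP, 3.57% to 7.93% in ONP IP and 5.38% to 20.5% in retina input. The highest nerve values were those of the bridging libraries, 6.97% in ONH and 7.93% in ONP. Ribosomal protein genes took 0.739% to 0.934% in retina IP, 0.388% to 0.803% in ONH IP, 0.367% to 1.05% in ONP IP and 1.14% to 4.34% in retina input. Metallothionein and ferritin transcripts are short or have short coding parts, and the part of these shares in their levels was not tested.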
